A study of Mus musculus with 6 samples.

Results

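The genes described here are the sensors, the transcription factor and the main chaperones of the unfolded protein response (UPR) in mouse hematopoietic stem cells (HSC). They were chosen by name as Ern1, Eif2ak3, Atf6, Xbp1, Hspa5, Hsp90b1, Calr, Pdia4, Dnajb9 and Herpud1, and all 10 were found among the 24062 genes listed in the deposited table. RNA was sequenced from sorted HSC of mice of 2 genotypes, with 3 libraries in each group. Control mice were Nr4a1 fl/fl; Nr4a3-/-, so they carried floxed but intact Nr4a1 and lacked Nr4a3. CDKO mice were Nr4a1 fl/fl; Nr4a3-/-; Rosa26-ERt2, where the last element is, as background, a Cre recombinase that tamoxifen activates in any cell that carries it. Mice of both groups received tamoxifen at 120 mg/kg in 4 daily injections, and HSC were sorted on day 5. Every library was made from a pool of 3 to 5 animals, and the age of the animals and the markers of the sort were not given in the sources used here. The comparison asks how these genes differed after tamoxifen, given to excise Nr4a1, in HSC that already lacked Nr4a3. Cre and any excision cannot be told apart because they occurred in the same libraries.

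The endoplasmic reticulum (ER) folds secreted and membrane proteins, and the UPR matches its capacity to the load. IRE1 (Ern1), PERK (Eif2ak3) and ATF6 (Atf6) are transmembrane proteins that sense unfolded protein in the ER, and the abundant chaperone BiP (Hspa5) binds them when the load is low. Active IRE1 cuts Xbp1 mRNA so that it encodes a strong transcription factor, PERK phosphorylates the initiation factor eIF2 and slows translation, and ATF6 is cut in the Golgi to release a transcription factor. Chaperones, disulfide isomerases and degradation factors of the ER are the classical targets. HSC are known for a low rate of protein synthesis and for their sensitivity to misfolded protein.

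The promoters of these genes are shown because ATF6 and XBP1 are known to act through short elements near the start of the target genes. Each window ran from 250 bases before to 50 bases after the start annotated by RefSeq (GRCm38.p6, the build that mm10 denotes), and 9 of the 10 genes, all but Atf6, were matched by symbol. The ER stress element ERSE was searched as CCAAT, 9 further bases and CCACG, and ERSE-II as ATTGG, 1 further base and CCACG. The core of the unfolded protein response element (UPRE) was searched as TGACGTG and that of the cyclic AMP response element (CRE) as TGACGTCA, each on both strands. ERSE and ERSE-II share the part CCACG, and the 2 cores share their first 6 letters. The 250 bases before the start of 4 genes with a match are printed 5′ to 3′ on the strand of the gene, with the matched letters in capitals; the capitals mark ERSE and UPRE core letters in Hspa5, ERSE letters in Calr and Hsp90b1, and ERSE-II letters in Herpud1.
Hspa5 (chr2:34771840-34772089, plus strand): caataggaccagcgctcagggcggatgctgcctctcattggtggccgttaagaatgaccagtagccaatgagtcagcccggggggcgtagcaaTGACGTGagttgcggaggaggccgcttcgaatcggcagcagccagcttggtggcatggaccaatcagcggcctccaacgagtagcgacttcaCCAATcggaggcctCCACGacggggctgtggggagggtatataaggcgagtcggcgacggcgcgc
Calr (chr8:84846932-84847181, minus strand): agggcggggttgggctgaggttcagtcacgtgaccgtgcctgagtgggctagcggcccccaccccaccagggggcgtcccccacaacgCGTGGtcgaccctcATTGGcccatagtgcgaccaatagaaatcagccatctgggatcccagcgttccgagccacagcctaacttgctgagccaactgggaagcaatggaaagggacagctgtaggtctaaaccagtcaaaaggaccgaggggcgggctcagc
Herpud1 (chr8:94386179-94386428, plus strand): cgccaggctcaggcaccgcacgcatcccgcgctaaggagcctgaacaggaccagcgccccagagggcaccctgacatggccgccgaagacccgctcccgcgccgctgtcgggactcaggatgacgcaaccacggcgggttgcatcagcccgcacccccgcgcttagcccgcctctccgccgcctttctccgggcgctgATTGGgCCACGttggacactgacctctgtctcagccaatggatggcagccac
Hsp90b1 (chr10:86705445-86705694, minus strand): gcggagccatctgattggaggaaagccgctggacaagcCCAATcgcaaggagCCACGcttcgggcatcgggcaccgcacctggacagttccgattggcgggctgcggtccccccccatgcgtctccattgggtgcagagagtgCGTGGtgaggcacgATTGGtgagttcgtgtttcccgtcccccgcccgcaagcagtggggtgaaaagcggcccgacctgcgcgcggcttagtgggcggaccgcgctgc
On the minus strand of a match the letters read as CGTGG followed by ATTGG, as in the Calr stretch.

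The Hspa5 window held an ERSE at -65 to -47 from the start and a UPRE core at -157 to -151. The Calr window held an ERSE on the opposite strand at -162 to -144. Hsp90b1 had 2 ERSE matches, at -212 to -194 and, on the opposite strand, at -107 to -89. Herpud1 had an ERSE-II at -52 to -42. None of the 4 letter patterns was found in the windows of Pdia4, Eif2ak3, Xbp1, Ern1 and Dnajb9, and none of the 9 windows held the CRE core. Of 32851 promoter windows in the RefSeq table, 39 (0.119%) held an ERSE, 12 (0.0365%) an ERSE-II, 661 (2.01%) the UPRE core and 588 (1.79%) the CRE core. A match describes these letters only and is not a measured binding site.

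**Figure D1:**
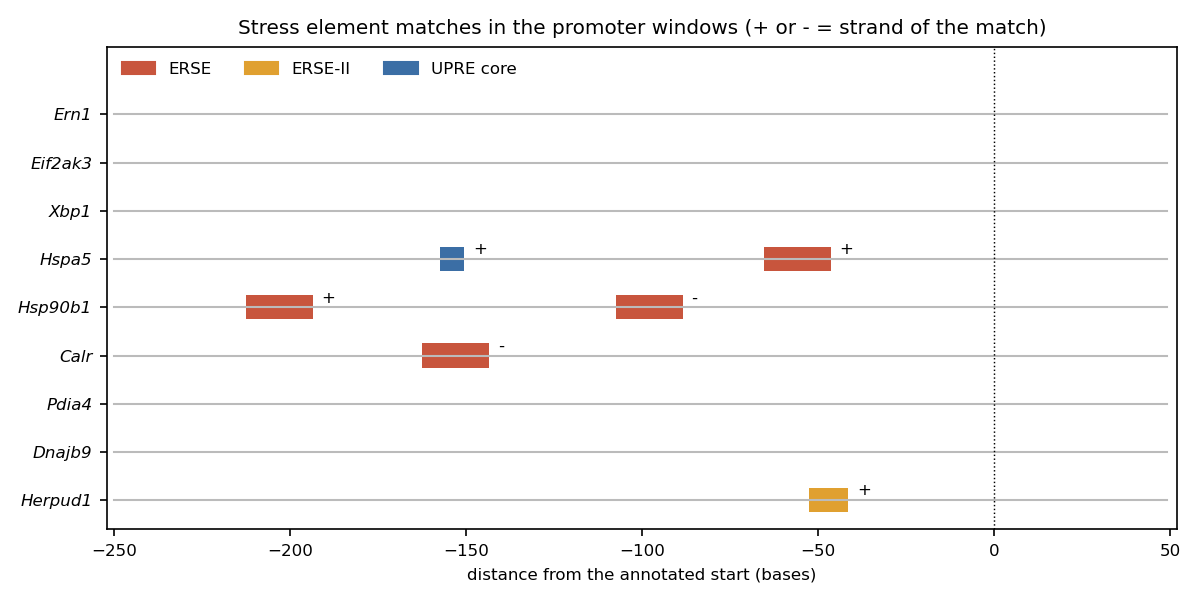
Position of each match in the promoter windows of 9 genes, with the distance from the annotated start in bases on the horizontal axis and 1 gene per row; the bar colour gives the element and the sign its strand. Hsp90b1 carries 2 ERSE matches, Hspa5 an ERSE and a UPRE core, Calr an ERSE and Herpud1 an ERSE-II, and the other 5 rows are empty.

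The libraries held 36464747 to 42348692 counted reads in the control group and 32863805 to 42772261 in the CDKO group, and the 10 genes had a mean of 875 to 33824 reads. Levels are given as reads per 1000000 counted reads (CPM), and a difference is the CDKO minus control coefficient of limma on log2(CPM + 1), called at an adjusted p under 0.05. Of 13732 genes tested 9096 were called, 66.2%, with 31.1% of tested genes called higher and 35.2% called lower in CDKO. The pools of the groups did not overlap for 70.7% of the genes tested. These shares are the background for each count given here. The labels name no preparation batch, so preparation shared within a group cannot be told apart from genotype, and p-values over pools measure the spread between these libraries only. Nr4a1 fell from 13.8 ± 1.18 to 9.13 ± 0.623 CPM (SD, n = 3, limma adjusted p = 0.00204) in CDKO pools, Nr4a3 had 0 reads in all 6 libraries, and Nr4a2 stood at 3.86 ± 0.282 and 2.43 ± 1.22 CPM and did not pass (adjusted p = 0.0547). Nr4a1 RNA was thus reduced and not lost, and since gene-level counts do not separate the floxed exons from the rest, the extent of the excision was not measured.

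Markers of the labelled cell type were present, with 12 of 12 HSC markers tested and summed levels of 4990 to 5240 CPM in controls and 4570 to 4770 CPM in CDKO (5 called higher, 6 lower). Marker lists of other blood cells also differed. Neutrophil markers summed to 807 to 1060 CPM in controls and 16.8 to 92.0 CPM in CDKO, with 11 of 11 called lower. Basophil, eosinophil and mast cell markers summed to 399 to 450 and 15.4 to 19.2 CPM with 8 of 8 tested called lower (Cma1 and Tpsb2 were at 0). Erythroid markers summed to 202 to 224 and 43.1 to 49.1 CPM with 5 of 6 called lower. The globin genes Hba-a1, Hba-a2, Hbb-b1 and Hbb-bt were at 0, although Slc4a1 was at 57.1, 49.4 and 54.7 CPM in controls. Whether globin reads were left out of the counts was not tested, so these values do not show that globin RNA was absent. Neutrophil progenitor markers summed to 430 to 456 and 256 to 373 CPM (4 of 8 called lower). Megakaryocyte markers summed to 423 to 446 and 593 to 604 CPM, with 7 of 8 called higher, and T and NK cell markers to 57.4 to 59.4 and 82.3 to 87.6 CPM, with 3 of 4 called higher and Cd3e, Cd3g and Cd8a at 0. Macrophage and monocyte markers summed to 64.9 to 75.2 and 65.3 to 71.7 CPM (4 of 9 called higher, 5 lower). Plasma cells, which carry a very large ER, had markers summing to 13.6 to 14.9 CPM in controls and 9.40 to 11.2 CPM in CDKO (1 of 4 called higher, 2 lower), and B cell markers summed to 47.5 to 56.8 and 57.7 to 61.4 CPM (1 of 6 called higher, 3 lower) with Pax5 and Ms4a1 at 0. The part of these cells in the differences that follow was not tested, and in pooled RNA fewer cells of a type and less RNA per cell cannot be told apart.

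The sensors Ern1 and Eif2ak3 fell in CDKO HSC, by 36.1% and 32.7% of the mean control level, and Atf6 did not pass the test. The chaperones Hsp90b1 and Calr, the isomerase Pdia4 and the degradation factor Herpud1 rose, by 18.5% to 39.4%. Hspa5, Xbp1 and Dnajb9 did not pass. In all, 4 of the 10 genes were called higher, 2 lower and 4 were not called, beside background shares of 31.1% and 35.2%. The median log2 difference of the 10 was 0.10, and that of all genes tested was -0.02. The pools of the groups did not overlap for 8 of the 10 genes, a share near the background of 70.7%.

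**Figure D2:**
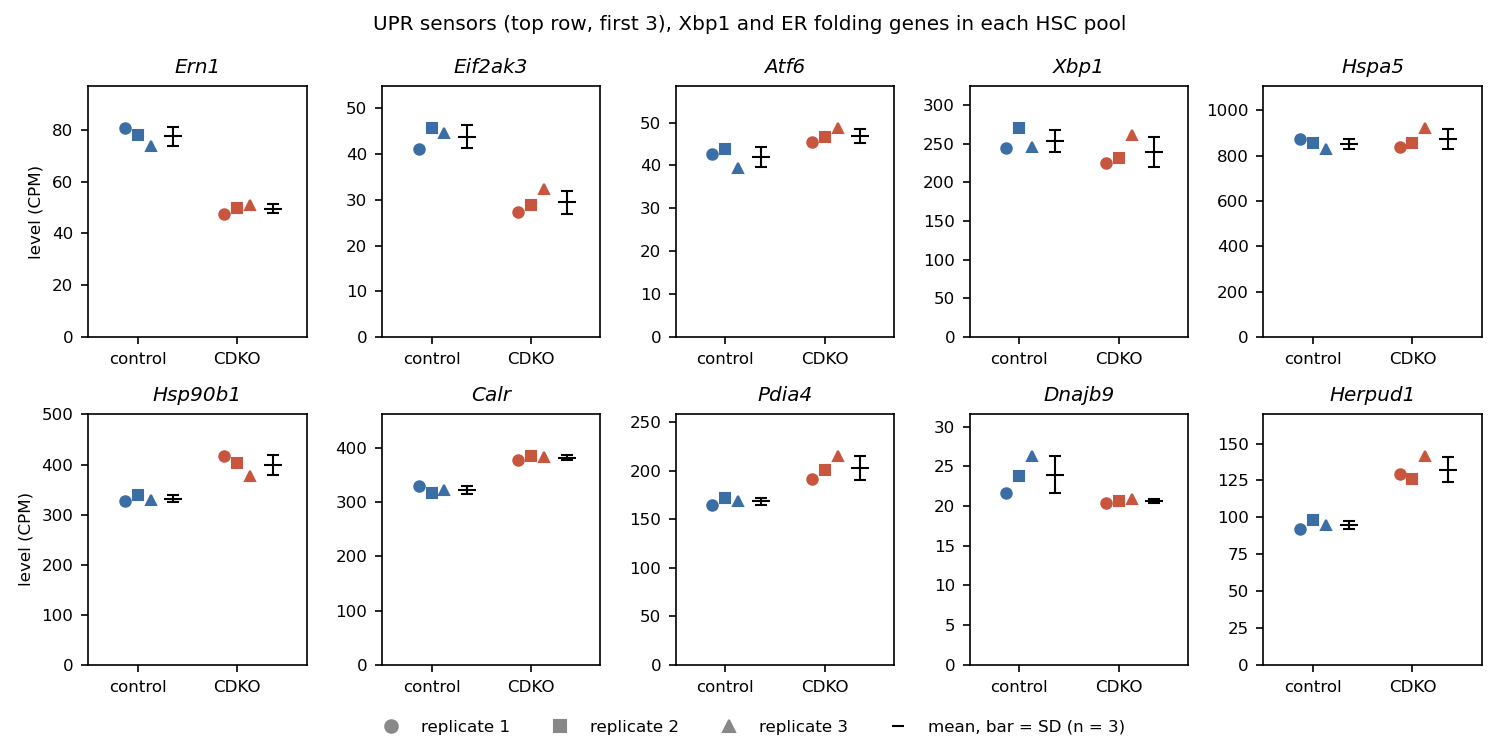
Level of each of the 10 genes in CPM (vertical axes from 0) in the 3 control (blue) and 3 CDKO (red) pools; marker shapes give the replicate number, and the black mark and bar give the mean and SD (n = 3). Ern1 and Eif2ak3 lie lower and Herpud1, Calr, Hsp90b1 and Pdia4 higher in all 3 CDKO pools, while the Hspa5 and Xbp1 points of the groups overlap.

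Ern1 encodes IRE1, the sensor that is both a kinase and an RNase (mm10 chr11:106397620-106487796). The control pools stood at 80.7, 78.0 and 73.6 CPM and the CDKO pools at 47.7, 49.8 and 51.0 CPM. Every CDKO pool lay below every control pool, and the gap between the groups was wider than the range within either of them. The means were 77.4 ± 3.59 and 49.5 ± 1.69 CPM (SD, n = 3). The log2 difference was -0.64 with a standard error of 0.06 (limma adjusted p = 5.66e-06). Its paralog Ern2, the IRE1 of mucosal epithelia, was at 0 in all 6 libraries.

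Eif2ak3 encodes PERK, the eIF2 kinase of the ER membrane (chr6:70844484-70905241). It was at 41.0, 45.7 and 44.7 CPM in controls and at 27.4, 28.8 and 32.3 CPM in CDKO pools. All 3 CDKO values were below the control values, with means of 43.8 ± 2.48 and 29.5 ± 2.53 CPM (SD, n = 3) and a log2 difference of -0.56 (standard error 0.09, limma adjusted p = 0.000152). Ern1 and Eif2ak3 fell to a like degree, so that the ratio of Ern1 to Eif2ak3 CPM within a library was 1.77 ± 0.171 in control and 1.68 ± 0.0904 in CDKO pools, less apart than the SD of the control pools. Of the exon bases of Eif2ak3, 8.05% are shared with an antisense transcript, Gm43292, not analysed here. Whether counting used strand was not given in the sources used here.

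Atf6 encodes the sensor that is itself the precursor of a transcription factor (chr1:170704457-170868585). Its control pools were at 42.7, 43.9 and 39.3 CPM and its CDKO pools at 45.6, 46.6 and 48.8 CPM. The 3 CDKO values lay just above the highest control value. The means were 42.0 ± 2.35 and 47.0 ± 1.63 CPM (SD, n = 3), with a log2 difference of 0.16 (SE 0.07) that did not pass (limma adjusted p = 0.0656). It was called with TMM scaling (limma adjusted p = 0.0463), quantile normalization (0.0371), edgeR (0.0457), DESeq2 (0.0158) and a loess adjustment for transcript GC and length (0.00861), with a range of 0.00861 to 0.208 over all alternatives. In the authors' deposited table its adjusted p was 0.0312.

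Ratios within a library, where scaling cancels, set the sensors beside each other. The ratio of Ern1 to Atf6 CPM was 1.89, 1.78 and 1.87 in control and 1.05, 1.07 and 1.05 in CDKO pools. The ratio of Eif2ak3 to Atf6 was 1.05 ± 0.0877 in control and 0.627 ± 0.0318 in CDKO pools (SD, n = 3), again with no overlap. The 3 sensors summed to 163.2 ± 5.10 CPM (control) and 126.0 ± 5.76 CPM (CDKO). A ratio shows unequal change and not which of its genes changed, and these ratios were not tested.

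**Figure D3:**
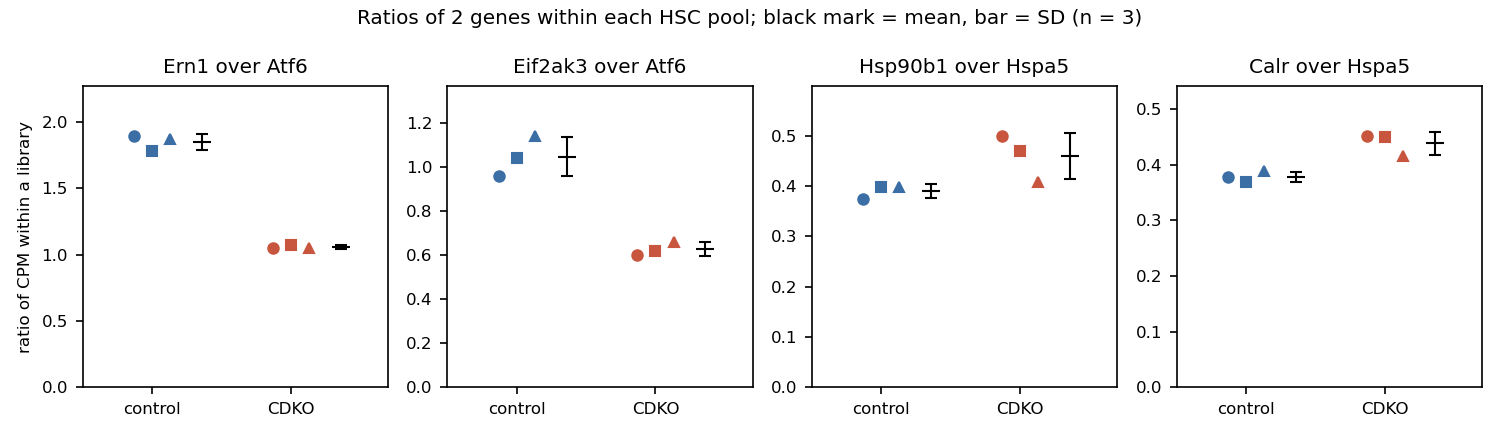
Ratio of the CPM of 2 genes within each library (vertical axes from 0) for Ern1 and Eif2ak3 over Atf6 and for Hsp90b1 and Calr over Hspa5; points are the 3 control (blue) and 3 CDKO (red) pools, and the black mark and bar give the mean and SD (n = 3). Ern1 over Atf6 averaged 1.85 in control and 1.05 in CDKO pools, and the 4 ratios show no overlap between groups.

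Xbp1 encodes the transcription factor downstream of IRE1 (chr11:5520641-5525993). Its mRNA is shown around the stretch that IRE1 is known to excise, because gene-level counts add the cut and uncut forms together. The 26 excised bases were located in the transcript Xbp1-201 of GENCODE M21 by the pair of loop motifs that flank them (CNGCAGC, 1 such pair in the transcript). They are bases 815 to 840, within the coding sequence, at chr11:5524279-5524304 of GRCm38 on the plus strand, and are given in capitals, written as DNA.
Xbp1: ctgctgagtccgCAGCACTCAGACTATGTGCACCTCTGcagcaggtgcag
The control pools were at 245, 270.3 and 246 CPM and the CDKO pools at 225, 231 and 261 CPM. The groups overlapped, since CDKO replicate 3 lay above control replicates 1 and 3. The means of 254 ± 14.5 and 239 ± 19.4 CPM (SD, n = 3) gave a log2 difference of -0.09 (SE 0.06) that did not pass (limma adjusted p = 0.235). Without CDKO replicate 3 the difference was -0.15 and was called (limma adjusted p = 0.0351, with 0.0351 to 0.628 over all alternatives). CDKO replicate 3 was the CDKO library with the most neutrophil marker RNA (92.0 CPM summed), and its part in the Xbp1 value was not tested. How much Xbp1 mRNA was spliced was not measured.

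Hspa5 encodes BiP, the HSP70 chaperone of the ER lumen (chr2:34772090-34776529). It was at 873, 855 and 828 CPM in controls and at 837, 857 and 923 CPM in CDKO pools, so the groups overlapped. The means were 852 ± 22.4 and 872 ± 44.7 CPM (SD, n = 3), with a log2 difference of 0.03 (standard error 0.05, limma adjusted p = 0.539). The sign of that difference turned without CDKO replicate 3 (-0.00805, adjusted p = 0.881) and with quantile normalization (-0.0638, adjusted p = 0.145). Hspa5 had the highest CPM of the 10 genes in every library.

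Hsp90b1 encodes GRP94, the HSP90 chaperone of the ER (chr10:86690841-86705444). The control pools were at 327, 340.0 and 330 CPM and the CDKO pools at 418, 403 and 378 CPM. All 3 CDKO pools lay above the control pools, which were close together. The means were 332 ± 7.01 and 399 ± 20.2 CPM (SD, n = 3), 20.2% higher in CDKO, with a log2 difference of 0.26 (standard error 0.05, limma adjusted p = 0.00033). Its exons share 10.3% of their bases with the antisense pseudogene 1810014B01Rik, which moved the other way, from 22.2 ± 1.21 to 12.5 ± 0.575 CPM (limma adjusted p = 5.41e-05).

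Calr encodes calreticulin, which binds the sugar chains of new glycoproteins and also holds calcium (chr8:84842088-84846931). Its control pools were at 329, 316 and 321 CPM and its CDKO pools at 377, 385 and 383 CPM. The pools of each group lay within a narrow band, and the bands did not overlap. The means of 322 ± 6.84 and 382 ± 4.01 CPM (SD, n = 3) gave a log2 difference of 0.24 (standard error 0.04, limma adjusted p = 0.00017).

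Pdia4 encodes ERp72, a protein disulfide isomerase (chr6:47796141-47813512). It was at 165, 172 and 169 CPM in controls and at 192, 201 and 216 CPM in CDKO pools, without overlap. The means were 169 ± 3.60 and 203 ± 11.9 CPM (SD, n = 3), with a log2 difference of 0.26 (standard error 0.05, limma adjusted p = 0.000688). The log2 differences of Hsp90b1, Calr and Pdia4 lay within 1 standard error of each other.

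Herpud1 encodes HERP, a membrane protein that gathers the ER degradation machinery (chr8:94386429-94395371). Its control pools were at 92.4, 97.9 and 94.6 CPM and its CDKO pools at 129, 126 and 142 CPM. Every CDKO pool lay above every control pool. The means of 95.0 ± 2.78 and 132 ± 8.26 CPM (SD, n = 3) gave a log2 difference of 0.47 (standard error 0.06, limma adjusted p = 2.18e-05), the highest among the 10 genes in these fits. Within a library the ratio of Herpud1 to Ern1 CPM was 1.23 ± 0.0739 in control and 2.67 ± 0.127 in CDKO pools.

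Dnajb9 encodes ERdj4, a BiP cochaperone that also helps hold IRE1 inactive (chr12:44205897-44210068). It was at 21.7, 23.8 and 26.4 CPM in controls and at 20.3, 20.6 and 20.9 CPM in CDKO pools. The CDKO values lay below the lowest control value, but the control pools were spread out. The means of 24.0 ± 2.35 and 20.6 ± 0.277 CPM (SD, n = 3) gave a log2 difference of -0.20 (SE 0.10) that did not pass (limma adjusted p = 0.0918). It was called without control replicate 1 (limma adjusted p = 0.0439) and with DESeq2 (adjusted p = 0.0451), and the adjusted p ran from 0.0439 to 0.296 over all alternatives.

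**Figure D4:**
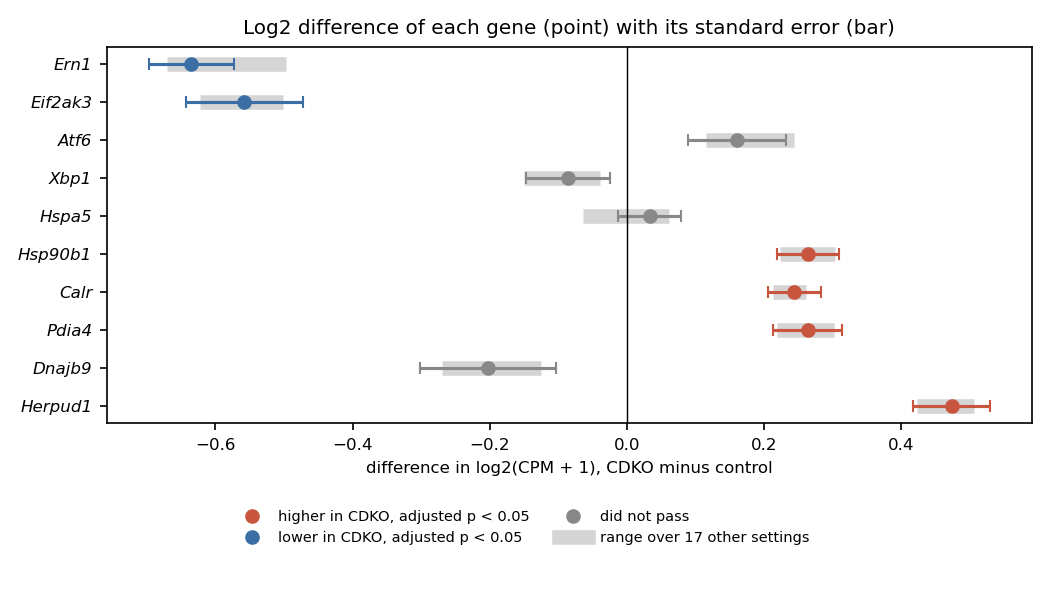
Difference in log2(CPM + 1), CDKO minus control, for each of the 10 genes (point) with its standard error (bar of the same colour) and the range over 17 other settings (grey band). The bands of Ern1, Eif2ak3, Xbp1 and Dnajb9 lie below 0, those of Atf6, Hsp90b1, Calr, Pdia4 and Herpud1 above 0, and that of Hspa5 spans 0. Xbp1, Dnajb9 and Atf6 did not pass in the main test.

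The 4 ER chaperones Hspa5, Hsp90b1, Calr and Pdia4 together made up 1675 ± 23.5 CPM in the controls and 1857 ± 38.2 CPM in CDKO (SD, n = 3). Relative to Hspa5, Hsp90b1 stood at 0.390 ± 0.0137 in control and 0.459 ± 0.0457 in CDKO pools, and Calr at 0.378 ± 0.00931 and 0.438 ± 0.0204, as ratios of CPM within a library. The ratio plot shows the 2 ratios in each pool. The 10 genes together took 2211 ± 35.3 CPM in controls and 2375 ± 71.0 CPM in CDKO.

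Levels were compared between genes as CPM per kilobase of the longest coding transcript in GENCODE M21. In control pools the order was Hspa5 (mean 232), Calr (148), Xbp1 (119), Hsp90b1 (118), Pdia4 (70.3), Herpud1 (48.7), Ern1 (11.2), Dnajb9 (9.73), Eif2ak3 (9.71) and Atf6 (5.79 CPM per kilobase). The ranges of the neighbours Xbp1 and Hsp90b1 overlapped, as did those of Ern1 and Dnajb9 and those of Dnajb9 and Eif2ak3. In CDKO pools Hsp90b1 (141) stood above Xbp1 (112 CPM per kilobase) with no overlap. Ern1 (7.12), Eif2ak3 (6.53) and Atf6 (6.48) lay close together below Dnajb9 (8.38 CPM per kilobase), and the ranges of neighbours among these 3 sensors overlapped. Hspa5, Calr, Hsp90b1, Pdia4 and Herpud1 stood above every sensor per length in both groups.

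The genes whose log2(CPM + 1) followed a member most closely over the 6 libraries were read out as a description, without a test, since the libraries fall into 2 groups. For Ern1 they were Rcor2 (Pearson r = 0.999), Rbm12 (0.999) and Dgat1 (0.998), and for Eif2ak3 they were Crebzf (0.998), Dph1 (0.998) and Spata5l1 (0.998). These 6 genes were all called lower in CDKO. For Hspa5 they were Prom2 (0.981), Mob3b (0.981) and Anxa11 (0.976), and for Xbp1 Snora28 (0.988), Ankrd9 (0.977) and Pcdhgb7 (0.976), none of which was called.

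Genes that process or relay the sensor signals were called in both directions, each at a share below the background. Of 17 tested genes of this list 4 were called higher (23.5%) and 4 lower (23.5%), beside 31.1% and 35.2% of all genes tested. The median log2 difference was 0.01 beside -0.02 over all genes tested. With a mean of at least 10 CPM required, the lower count was 2, since Creb3l1 and Creb3l3 were then not tested. Wfs1, an ER membrane protein that restrains ATF6 and is mutated in Wolfram syndrome, fell from 17.4 ± 1.08 to 2.96 ± 1.04 CPM (limma adjusted p = 2e-06). Creb3l1 and Creb3l3, transcription factors cut like ATF6, fell to 0.888 and 0.736 CPM from control levels of 3.68 and 2.04 CPM, and their relative Creb3 rose from 34.0 to 47.3 CPM. Tmbim6, the inhibitor BI-1 that dampens IRE1, rose from 213 ± 10.8 to 297 ± 9.55 CPM (limma adjusted p = 6.8e-06), and Bax, a pore-forming death protein that also binds IRE1, rose from 62.6 to 84.6 CPM.

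The PERK arm and its feedback had more lower calls, 12 of 19 tested genes (63.2%), against 5 higher (26.3%). The shares of all genes tested were 35.2% lower and 31.1% higher. The median log2 difference was -0.18, beside -0.02 over all genes tested. Ppp1r15b, the phosphatase subunit that constantly reverses eIF2 phosphorylation, fell from 183 ± 13.5 to 108 ± 0.978 CPM (limma adjusted p = 9.34e-07). Atf3, a stress-induced transcription factor, fell from 3.11 to 0.510 CPM, and Eif2ak4, the amino acid sensing eIF2 kinase GCN2, from 77.2 to 51.4 CPM. Genes known as ATF4 targets were called in both directions, and more of those named here were lower than higher. Ddit3 fell from 17.4 to 9.97 CPM, Trib3 from 48.2 to 29.2 CPM and Asns from 99.02 to 87.2 CPM. Ppp1r15a fell from 97.7 to 71.4 CPM, although the pools of the groups overlapped. Also called lower were Atf5 (log2 difference -0.79) and Chac1 (-0.89), the latter near the detection limit in CDKO pools. Nupr1 rose from 37.3 to 47.6 CPM (limma adjusted p = 0.00763) and Sesn2 from 31.4 to 50.05 CPM. Atf4 itself was at 77.7 ± 2.23 and 69.4 ± 2.46 CPM (limma adjusted p = 0.0238), a call lost without control replicate 2 (adjusted p = 0.0854) or CDKO replicate 3 (adjusted p = 0.0723). Higher in CDKO were Eif2ak2, the double-stranded RNA kinase PKR, from 92.2 to 129 CPM, and Eif2s1, the eIF2 subunit these kinases phosphorylate, from 128 to 171 CPM. Sesn2 encodes a stress-induced restraint on mTORC1.

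Of 28 tested genes for further ER chaperones and cochaperones, 11 were called higher (39.3%) and 4 lower (14.3%). The shares of all genes tested were 31.1% and 35.2%. The median log2 difference was 0.08. Without control replicate 2 the higher count was 7, beside 3889 of all 13732 genes tested. Canx, the membrane-bound relative of calreticulin, rose from 745 ± 10.03 to 858 ± 38.0 CPM, and Hyou1, a large HSP70-like protein that recharges BiP, from 108 to 123.5 CPM. Uggt1, which returns misfolded glycoproteins to calnexin and calreticulin, rose from 125 to 158 CPM (limma adjusted p = 0.000115). Fkbp14, a prolyl isomerase, rose from 2.33 ± 0.479 to 9.29 ± 0.755 CPM, and Tor1a, an ER ATPase, from 57.9 to 91.0 CPM. Dnajc1, a membrane J protein that binds BiP, fell from 112 to 81.1 CPM, Mesdc2, a chaperone of LRP receptors, from 128 to 112.5 CPM, and Creld2, a classical ER stress gene, from 67.1 to 57.5 CPM.

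Disulfide isomerases and oxidases were called in both directions, each at a share below the background. Of 24 tested genes 6 were called higher and 5 lower, with a median log2 difference of 0.04, and DESeq2 called 10 higher. Pdia3, the isomerase ERp57 that works with calreticulin, rose from 833 ± 13.3 to 1037 ± 20.01 CPM (limma adjusted p = 2.5e-05), Pdia5 rose from 21.1 to 35.2 CPM, and Erp44, which retains proteins by thiol bonds, rose from 65.5 to 96.1 CPM. Both ERO1 oxidases, which supply the isomerases with disulfide bonds, fell. Ero1l went from 56.6 ± 2.21 to 23.7 ± 2.13 CPM (limma adjusted p = 5.61e-07) and Ero1lb from 24.8 ± 1.04 to 6.85 ± 0.369 CPM (adjusted p = 4.2e-07). Tmx3, a membrane-bound isomerase, fell from 73.8 to 35.7 CPM, while Pdia6 was at 429.8 and 417.5 CPM and did not pass.

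ER-associated degradation, the pathway in which HERP acts, had 10 of 30 tested genes called higher (33.3%) and 8 lower (26.7%). The shares of all genes tested were 31.1% and 35.2%. The median log2 difference of the list was -0.02. The lower count was 4 without control replicate 1 or without CDKO replicate 1. Faf2, an anchor of the VCP extraction ATPase, rose to 148 CPM (log2 difference 0.56), Nploc4, a VCP cofactor, from 158 to 194 CPM, and Derl3, a derlin known from secretory cells and also on the plasma cell list, from 0.180 ± 0.226 to 1.11 ± 0.152 CPM. Sel1l, the partner of the ubiquitin ligase HRD1, fell from 254 ± 3.04 to 218 ± 4.22 CPM (limma adjusted p = 0.000484). The ligase itself, Syvn1, rose from 42.7 to 52.9 CPM. Vimp, a VCP-binding selenoprotein, fell from 61.4 to 40.4 CPM and Aup1 from 257 to 209.5 CPM.

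The entry route into the ER showed more higher calls. Of 32 tested genes of the translocon, signal peptidase and oligosaccharyl transferase 18 were called higher (56.2%) and 2 lower (6.25%), beside 31.1% and 35.2% of all genes tested. The median log2 difference was 0.20, beside -0.02 over all genes tested. Sec61a1, the channel subunit of the translocon, rose from 300.5 ± 4.80 to 416 ± 3.57 CPM (limma adjusted p = 1.49e-06), while its paralog Sec61a2 fell from 42.3 ± 2.16 to 13.8 ± 2.63 CPM (adjusted p = 1.35e-06). Spcs3, a signal peptidase subunit, rose from 222 to 328 CPM, Sec63, which recruits BiP to the channel, from 68.2 to 98.3 CPM, and Rpn1, a subunit of oligosaccharyl transferase, from 315 to 384 CPM. Sec11c, a catalytic subunit of the peptidase, was at 109 and 97.6 CPM (limma adjusted p = 0.0325). Its call was lost by edgeR (adjusted p = 0.0526) and when replicate 2 or 3 of the controls or replicate 1 or 2 of the CDKO pools was left out, each of which left 1 lower call. Without CDKO replicate 1 its adjusted p was 0.12.

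**Figure D5:**
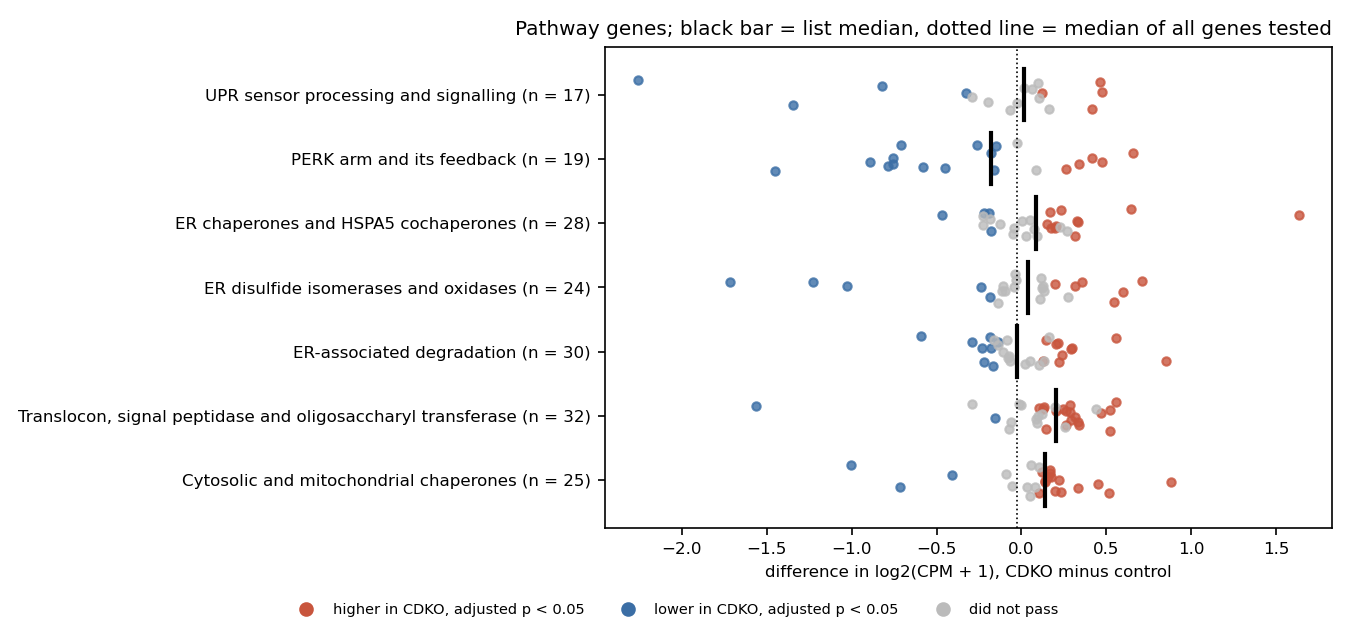
Difference in log2(CPM + 1), CDKO minus control, of every tested gene in 7 pathway lists, 1 point per gene, with the list median (black bar) and the median of all genes tested (dotted line, -0.02). The translocon list (median 0.20) lies mostly to the right and the PERK list (median -0.18) mostly to the left of the dotted line.

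Genes with an ERSE or ERSE-II match in their promoter window were read out beside the members that share it. Of 49 such genes 26 were tested, with 10 called higher and 6 lower and a median log2 difference of 0.05. Without the members of the gene set described here, 22 were tested, 7 were higher and 6 lower, and the median was -0.04. For all 10254 tested genes with a promoter window the counts were 3212 higher and 3624 lower. Among tested genes of the ER with a match, the members Calr, Hsp90b1 and Herpud1 were higher. Also higher were Canx, Syvn1, Derl3, Dnajb11 (118 to 134 CPM, a BiP cochaperone) and Krtcap2 (93.05 to 118 CPM, a subunit of oligosaccharyl transferase). Creld2 was lower, and Hspa5, Pdia6, Dnajc3 and Alg12 were not called. Of the other tested genes with a match, Lrif1 and Xlr3b were higher, Acacb, Adcy3, Hnrnpa3, Rbm39 and Spats2l were lower, and the rest were not called. The Dnajb11 call (limma adjusted p = 0.021) was lost without control replicate 2, control replicate 3 or CDKO replicate 3 (adjusted p of 0.06, 0.0946 and 0.0855).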

How the data were processed

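RNA was extracted with RNeasy Micro columns, amplified with the SMARTer Ultra Low Input v3 kit and made into Nextera XT libraries, per the labels. TopHat2, HTSeq and DESeq2, with no version, and the build mm10 are named per the submitters' processing notes; the gene annotation was not given in the sources used here. The deposited table holds CPM per library, each column summing to 1000000. Whole reads were recovered from the CPM steps (100.0% of values above 0 within 0.01 of a read). Also deposited is baseMean, a signal (mean scaled counts of all libraries), not used here. The deposited log2 fold change sets control over CDKO and is not quoted here. The deposited stat column is a score and was not used. Each raw or adjusted p-value in the deposited table is from the authors' DESeq2 run and is quoted only where named.

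Genes with a mean of at least 10 recovered reads were tested with limma 3.58.1 (R 4.3.3) on log2(CPM + 1) using moderated variances that followed a trend on the mean (eBayes), two-sided, with Benjamini-Hochberg adjustment over all genes tested and a threshold of 0.05. With a pseudocount of 1, the log2 difference of low genes is understated. Of the genes listed, 7104 had no read, and 12 rows carrying a date as a name and 2 rows sharing a symbol were left out. A count of 0 allows a level of at most 0.0701 to 0.0913 CPM by library (3 counts, counting error only). That limit does not cover reads left out of the counts, such as reads that match near-identical genes equally. Counts of reads were tested with edgeR 4.0.16 (8787 genes called) and DESeq2 1.42.0 (9506 genes called) as alternatives. The other alternatives were a replicate block, leaving out each library, other filters, TMM or quantile scaling, other pseudocounts and a loess adjustment for transcript GC and length. No pair of libraries of a group agreed within sampling noise (chi-square per degree of freedom 7.88 to 14.5). The procedure was tested on simulated data.

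The members and pathway lists were chosen with earlier results of these data known. Named genes are all members, up to 3 genes per list and direction with the smallest p among those called, the 3 genes most correlated with Hspa5, Xbp1, Ern1 and Eif2ak3, the markers at 0, and Nr4a1, Nr4a2 and Nr4a3. Ern2 (not tested, no read), 1810014B01Rik, Gm43292, Canx, Hyou1, Atf4, Ddit3, Trib3, Nupr1, Pdia6, Rpn1, Syvn1, Krtcap2, Dnajb11, Dnajc3 and Alg12 were named after their values were seen. So were Asns, Atf5, Chac1, Ppp1r15a, Slc4a1, Hspa1a, Lrif1, Xlr3b, Acacb, Adcy3, Hnrnpa3, Rbm39 and Spats2l. Transcript lengths are those of GENCODE M21, in place of the RefSeq lengths planned. A planned search of the protein sequences was not done.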

Additional observations from a re-analysis of the deposited data

How the results depend on the processing

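The calls of Ern1, Eif2ak3, Hsp90b1, Calr, Pdia4 and Herpud1 held in direction and threshold under the 17 alternatives, where the members called higher numbered 4 to 5 and those called lower 2 to 3. Over all genes 8271 to 8668 were called when 1 library was left out, and 6576 (mean of at least 10 CPM, which tests fewer genes) to 9506 (DESeq2) over all alternatives. The difference of Hspa5, which did not pass, ran from -0.00805 (reversed, without CDKO replicate 3) to 0.0619 with 1 library left out and also reversed with quantile normalization (-0.0638). Dnajc3, not called, ran from -0.0686 to 0.0133 (reversed, without control replicate 1) with 1 library left out and reversed with the GC and length adjustment (0.00341), and the cause of these reversals was not tested. Pdia6, not called in the main test, was called lower with quantile normalization (-0.10, adjusted p = 0.0162). Nr4a2, not called in the main test, was called with the replicate block (adjusted p = 0.0314), without CDKO replicate 3 (0.0141), with a pseudocount of 5 (0.0396) and with the GC and length adjustment (0.046). Nothing in the labels ties pools by replicate number, and the deviations of same-numbered pools correlated at 0.0518, 0.0483 and -0.0120. With the replicate block 9241 genes, 4 members higher and 2 lower were called, and no call of a member changed. The share of higher calls among all genes called moved by less than 10 percentage points between scalings (46.9% in the main test, 51.3% with quantile normalization). Some list counts moved by over 1.5 times. Lower calls in sensor processing went from 4 to 2 (mean of at least 10 CPM, which leaves Creb3l1 and Creb3l3 untested). Higher calls went from 11 to 7 in ER chaperones (without control replicate 2) and from 6 to 10 in isomerases (DESeq2). In cytosolic chaperones higher calls went from 15 to 9 (without CDKO replicate 1). Lower calls went from 8 to 4 in degradation and from 2 to 1 in the translocon list, under the settings given with those lists. The members had a mean of 875 or more reads, and how depth and the number of pools each limit these tests was not compared.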

Other observations

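Chaperones outside the ER also differed. Of 25 tested cytosolic and mitochondrial chaperone genes 15 were called higher and 3 lower in CDKO, beside 31.1% and 35.2% of all genes tested, with a median log2 difference of 0.14, and the higher count was 9 without CDKO replicate 1. Hspa4l and Hspa4, nucleotide exchange factors for cytosolic HSP70, rose to 131 ± 2.09 and 273 ± 7.74 CPM from control levels of 70.4 ± 1.75 and 191 ± 4.80 CPM (limma adjusted p = 1.7e-07 and 1.85e-06). Stip1, which links HSP70 to HSP90, rose from 184 to 252 CPM. Lower were Hsf1, the transcription factor of the heat shock response (138 to 104 CPM), and Bag3, an HSP70 partner in selective autophagy (46.5 to 28.0 CPM). Hspa1b, a heat-inducible HSP70, was also lower and was near the detection limit in CDKO pools (1.40 ± 0.410 and 0.197 ± 0.212 CPM). Its near-identical paralog Hspa1a had no reads except in CDKO replicate 3 (0.257 CPM). Whether reads shared by these paralogs were counted was not tested.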
